A study of Danio rerio with 16 samples.

Results

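Homozygous miR-214 mutant (KO) gonads were compared with heterozygous (HET) gonads of zebrafish (Danio rerio) whose mother was herself a homozygous mutant. The 8 libraries, 4 KO and 4 HET, were chosen by the parental label of the samples, out of 16 in the series. The KO group held offspring with both copies of miR-214 mutated, and the HET group held offspring of the same kind of cross with 1 mutated copy, all from a homozygous female mated to a heterozygous male. Both groups therefore developed from eggs of a mother without an intact copy and differed in the copy received from the father. Every fish carried a line made with CRISPR-Cas9 and 2 guide RNAs, kept past the F3 generation and crossed to the germ-cell reporter Tg(vasa:eGFP). The strain label reads mz 06de and the breed label TUE, while the growth protocol speaks of a mix of AB and TU fish. All samples carry the same line label, and there was no wild-type group. Each library was a pool of 9, 9, 9 and 8 gonads in KO replicates 1 to 4 and of 7 gonads in each HET replicate. The age is 31 days post fertilization by the titles and 27 days by another label. The other 8 libraries come from the paternal cross, a heterozygous female mated to a homozygous male, with 8 or 9 gonads in each KO pool and 9 in each HET pool. The title of the series names sex determination and gsdf as the subject. The sex of the gonads in a pool is not given.

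MicroRNAs are short RNAs that guide Argonaute proteins to messenger RNAs and lower their stability or translation, mainly through pairing of a seed near their 5′ end. In mammals miR-214 is made, together with a member of the miR-199 family, from a transcript antisense to an intron of a dynamin 3 gene, and in zebrafish embryos it is known for restraining sufu, an inhibitor of Hedgehog signalling. The juvenile zebrafish gonad first forms immature oocytes and then becomes either an ovary or a testis. Gsdf, a secreted factor of the TGF-beta family made by somatic cells around the germ cells, is known to favour the testis path in several fishes. Roles of the genes below are those known from human and mouse unless a clause says otherwise.

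The maternal-cross libraries held 22.3 M, 24.6 M, 19.9 M and 22.7 M counts (M, mega) in KO replicates 1 to 4 and 22.8 M, 23.5 M, 24.3 M and 23.1 M in HET replicates 1 to 4, within the 19.9 M to 30.1 M of the whole series. A count of 3, taken as the floor of detection, was worth 0.122 to 0.151 counts per mega counts of the unscaled library total in these libraries, which covers counting error only. Gene levels are given in CPM, which are counts per mega counts of the library total after TMM scaling. The transcript annotated as MIR214 had raw counts of 0, 0, 1 and 4 in KO and 3, 4, 9 and 3 in HET, too few to be tested. In the libraries labelled paternal-cross KO it had 5, 7, 3 and 4 counts, against 0, 2, 0 and 0 in those labelled paternal-cross HET, which runs against those labels. Poly(A) libraries do not measure mature microRNAs and the position of the mutation is not given in the sources used here, so these counts check the genotypes in neither cross. Gonad markers were present in every library, with the germ-cell helicase DDX4 (vasa) at 1147 to 1224 CPM in KO and 1131 to 1233 CPM in HET. Some libraries stood apart. Pancreas and intestine markers summed to 146, 302, 2490 and 11670 CPM in KO replicates 1 to 4, against 893, 148, 142 and 110 CPM in HET replicates 1 to 4. On the main axis of variation within groups, HET replicate 3 scored highest at 0.554 and KO replicate 2 lowest at -0.355.

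A small set of genes separated KO from HET gonads. The vitamin D 24-hydroxylase gene CYP24A1, the transcription factor gene KLF9 and the kinase gene PIM1 were higher in KO, and PPP4R4, BLOC1S2 and VEGFC, which encode a phosphatase subunit, a subunit of a lysosome-related trafficking complex and a growth factor for lymphatic vessels, were lower. The edgeR quasi-likelihood test called 43 of 21683 genes at an adjusted p under 0.05, which is 0.198% of those tested. Of these, 34 were higher in KO (0.157% of the genes tested) and 9 were lower (0.0415%). In all 43 the 4 KO values and the 4 HET values did not overlap, which was so in 3.92% of all tested genes (KO above HET in 2.25% and below in 1.67%). The genes higher in KO had a median log2 fold change of 1.28 and reached from 0.37 to 3.29, and those lower reached from -0.93 to -2.56 with a median of -1.52. In pooled gonads, fewer cells of a type and less RNA per cell cannot be told apart. Every library mattered to the count, which was 20, 85, 22 and 22 without KO replicate 1, 2, 3 or 4 and 19, 25, 132 and 21 without HET replicate 1, 2, 3 or 4. Without KO replicates 3 and 4, the libraries rich in pancreas markers, 9 genes passed and 7 of them were among the 43 (CYP24A1, KLF9, gcga, PIM1, DAB2, TMEM179 and SERPINH1). That fit had fewer KO libraries, which alone can cost calls. All 43 genes kept their sign in it, which follows from their KO and HET values not overlapping and so tests nothing. In that fit the median log2 fold change was 1.08 for the higher genes and -1.52 for the lower genes. Fitting only the 8 maternal-cross libraries called 5 genes, all among the 43, namely CYP24A1, KLF9, PIM1, PPP4R4 and si:dkey-85n7.9.

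**Figure D1:**
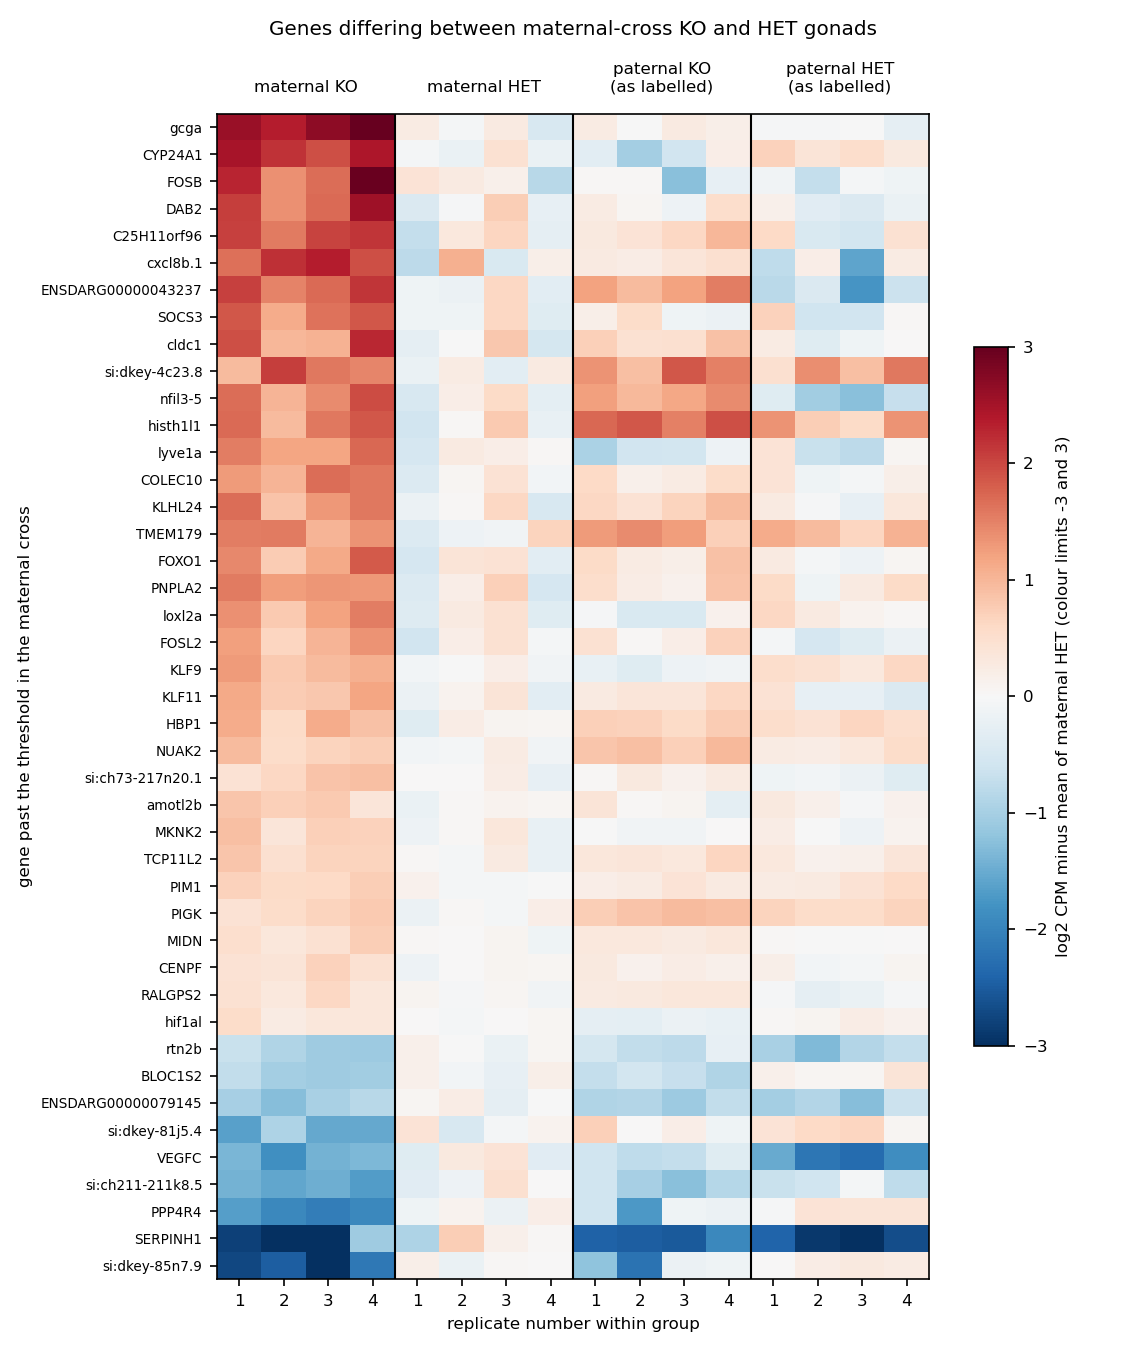
Each row is a gene past the threshold between maternal-cross KO and HET gonads, each column a library, and the colour is log2 CPM minus the mean of the 4 maternal-cross HET libraries (colour limits -3 and 3). The 34 genes higher in maternal-cross KO stand above the 9 lower genes, and the 8 paternal-cross libraries at the right show how the same genes stood there.

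Of the 9 genes lower in KO, PPP4R4 (ENSDARG00000010407), a regulatory subunit of protein phosphatase 4, shared the smallest adjusted p with BLOC1S2. It stood at 5.97, 4.89, 4.42 and 4.87 CPM in KO replicates 1 to 4, against 17.1, 20.1, 16.5 and 21.4 CPM in HET replicates 1 to 4. All KO libraries lay under a narrow HET group, and the log2 fold change was -1.90 (SE 0.24, adjusted p = 0.00253 in edgeR). BLOC1S2 (ENSDARG00000046081), part of the BLOC-1 complex that sorts cargo to lysosome-related organelles, had 9.38, 7.71, 7.46 and 7.60 CPM in KO, against 17.4, 14.6, 13.2 and 17.7 CPM in HET. Its log2 fold change was -0.97 (SE 0.12, adjusted p = 0.00253 in edgeR). KO replicate 1 was the highest of its group for both genes and still below the lowest HET library.

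VEGFC (ENSDARG00000069640), the ligand that drives growth of lymphatic vessels, was a low transcript at 0.981, 0.705, 0.951 and 0.991 CPM in KO, against 1.97, 3.104, 3.36 and 1.99 CPM in HET. These levels rest on raw counts of 23, 17, 20 and 24 in KO and 42, 73, 85 and 43 in HET, and the log2 fold change was -1.52 (SE 0.23, adjusted p = 0.00953 in edgeR). The largest fall among the 43 was that of si:dkey-85n7.9 (ENSDARG00000096709), which has no assigned role, at 0.384, 0.456, 0.285 and 0.578 CPM in KO, against 2.85, 2.21, 2.61 and 2.55 CPM in HET. Its log2 fold change was -2.56 (SE 0.36, adjusted p = 0.00439 in edgeR), from 6 to 14 raw counts in KO and 52 to 66 in HET.

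SERPINH1 (ENSDARG00000019949), a chaperone of collagen in the endoplasmic reticulum, had 2.43, 1.08, 2.09 and 8.14 CPM in KO, against 8.94, 28.4, 18.8 and 17.6 CPM in HET. The highest KO library, replicate 4, came close to the lowest HET library, replicate 1. The log2 fold change was -2.42 (SE 0.46, adjusted p = 0.0363 in edgeR), and the gene was past the threshold in 4 of 8 fits that left out 1 maternal-cross library. Its adjusted p was 0.125 and 0.124 without KO replicate 1 or 3 and 0.103 and 0.0885 without HET replicate 2 or 4, and its log2 fold change was -3.31 without KO replicate 4. The symbol is shared by more than 1 gene identifier. Of the remaining 4 lower genes, rtn2b, a reticulon of the endoplasmic reticulum, averaged 3.64 ± 0.489 CPM in KO gonads and 6.92 ± 0.714 CPM in HET gonads (SD, n = 4 each). The other 3, si:ch211-211k8.5, si:dkey-81j5.4 and ENSDARG00000079145, carry no known role, and they averaged 0.594, 2.27 and 1.85 CPM in KO, against 1.74, 6.04 and 3.76 CPM in HET.

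Among genes of hormone and vitamin metabolism, CYP24A1 (ENSDARG00000103277), whose product inactivates vitamin D, had the smallest adjusted p of all. It stood at 3.79, 3.11, 2.62 and 3.72 CPM in KO, against 0.655, 0.595, 0.948 and 0.602 CPM in HET, from raw counts of 89, 75, 55 and 90 in KO and 14, 14, 24 and 13 in HET. The difference was several times the spread of either group, with a log2 fold change of 2.23 (SE 0.24, adjusted p = 0.000969 in edgeR). The glucagon precursor gene gcga (ENSDARG00000079296) had 10.9, 9.20, 11.6 and 40.3 CPM in KO, against 2.15, 1.74, 2.17 and 1.30 CPM in HET. KO replicate 4 stood far above the other 3 KO libraries, which lay close together and above every HET library. The log2 fold change of gcga was 3.29 (SE 0.39, adjusted p = 0.00147 in edgeR) and 2.52 without KO replicate 4 (adjusted p = 3.73e-06). Gcga moved with pancreas markers in part. The protease gene prss1, a digestive enzyme of the exocrine pancreas, had 22.9, 44.3, 358 and 1740 CPM in KO, against 133, 21.6, 20.5 and 19.1 CPM in HET. Gcga was nearly as high in KO replicates 1 and 2, where prss1 was low, as in KO replicate 3, and it was not raised in HET replicate 1, where prss1 was higher. The insulin gene ins, another islet hormone, stood at 0.767, 1.49, 1.33 and 1.78 CPM in KO, against 1.82, 1.15, 0.987 and 0.972 CPM in HET, and its groups overlapped. What part pancreas or other tissue in the pools had in the gcga difference was not tested.

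Several called genes encode transcription factors, a grouping made after their values were seen and given with no test. KLF9 (ENSDARG00000068194), a Krüppel-like factor induced by thyroid hormone and by glucocorticoids, had 21.2, 15.2, 16.9 and 18.3 CPM in KO, against 8.33, 8.76, 10.03 and 8.10 CPM in HET. Its log2 fold change was 1.02 (SE 0.12, adjusted p = 0.00106 in edgeR). HBP1 (ENSDARG00000028517), an HMG-box repressor that restrains the cell cycle, had 14.4, 9.95, 14.4 and 12.2 CPM in KO, against 5.15, 7.83, 7.11 and 6.89 CPM in HET. In both genes the lowest KO library was replicate 2. FOSB (ENSDARG00000055751), an AP-1 subunit of the immediate-early type, had 2.43, 1.28, 1.57 and 3.84 CPM in KO, against 0.655, 0.595, 0.553 and 0.278 CPM in HET, with a log2 fold change of 2.12 (SE 0.36, adjusted p = 0.018 in edgeR). The zebrafish gene nfil3-5 (ENSDARG00000094965), of the bZIP family of the repressor NFIL3, had 30.0, 19.0, 24.9 and 36.3 CPM in KO, against 6.69, 10.7, 14.0 and 7.54 CPM in HET, with a log2 fold change of 1.50 (SE 0.23, adjusted p = 0.00953 in edgeR). Within this gene KO replicate 4 was highest and KO replicate 2 lowest, and HET replicate 3 was the highest HET library. KLF11, FOXO1 and FOSL2, named outside the rule for named genes, rose by 0.96, 1.29 and 1.03 on the log2 scale with adjusted p values of 0.0366, 0.0373 and 0.0479, and each lost its call in 6 of 8 fits that left out a library.

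Of kinases and signalling regulators, PIM1 (ENSDARG00000100020), a serine/threonine kinase that promotes survival and growth, had tight groups, at 73.5, 67.8, 69.1 and 76.6 CPM in KO, against 50.2, 43.8, 44.0 and 45.2 CPM in HET. The log2 fold change was 0.65 (SE 0.09, adjusted p = 0.00275 in edgeR), so a small difference was well resolved. SOCS3 (ENSDARG00000025428), a feedback inhibitor of cytokine signalling through JAK and STAT, had 39.3, 23.3, 33.1 and 39.0 CPM in KO, against 9.78, 9.91, 16.6 and 8.37 CPM in HET, with a log2 fold change of 1.59 (SE 0.28, adjusted p = 0.0219 in edgeR). The endocytic adaptor gene DAB2 (ENSDARG00000053091) had 111, 67.7, 84.7 and 154 CPM in KO, against 19.3, 25.5, 43.5 and 22.1 CPM in HET. KO replicate 4 was highest and HET replicate 3 came nearest to the KO group. The log2 fold change of DAB2 was 1.92 (SE 0.26, adjusted p = 0.00349 in edgeR), and it was 3.77-fold higher in KO. MIDN, which encodes midnolin, a factor that brings proteins to the proteasome, averaged 31.3 ± 3.72 CPM in KO gonads and 21.8 ± 1.28 CPM in HET gonads, and KLHL24, a substrate adaptor of a cullin-3 ubiquitin ligase, averaged 18.6 ± 4.46 CPM in KO gonads and 7.38 ± 2.52 CPM in HET gonads (SD, n = 4 each).

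**Figure D2:**
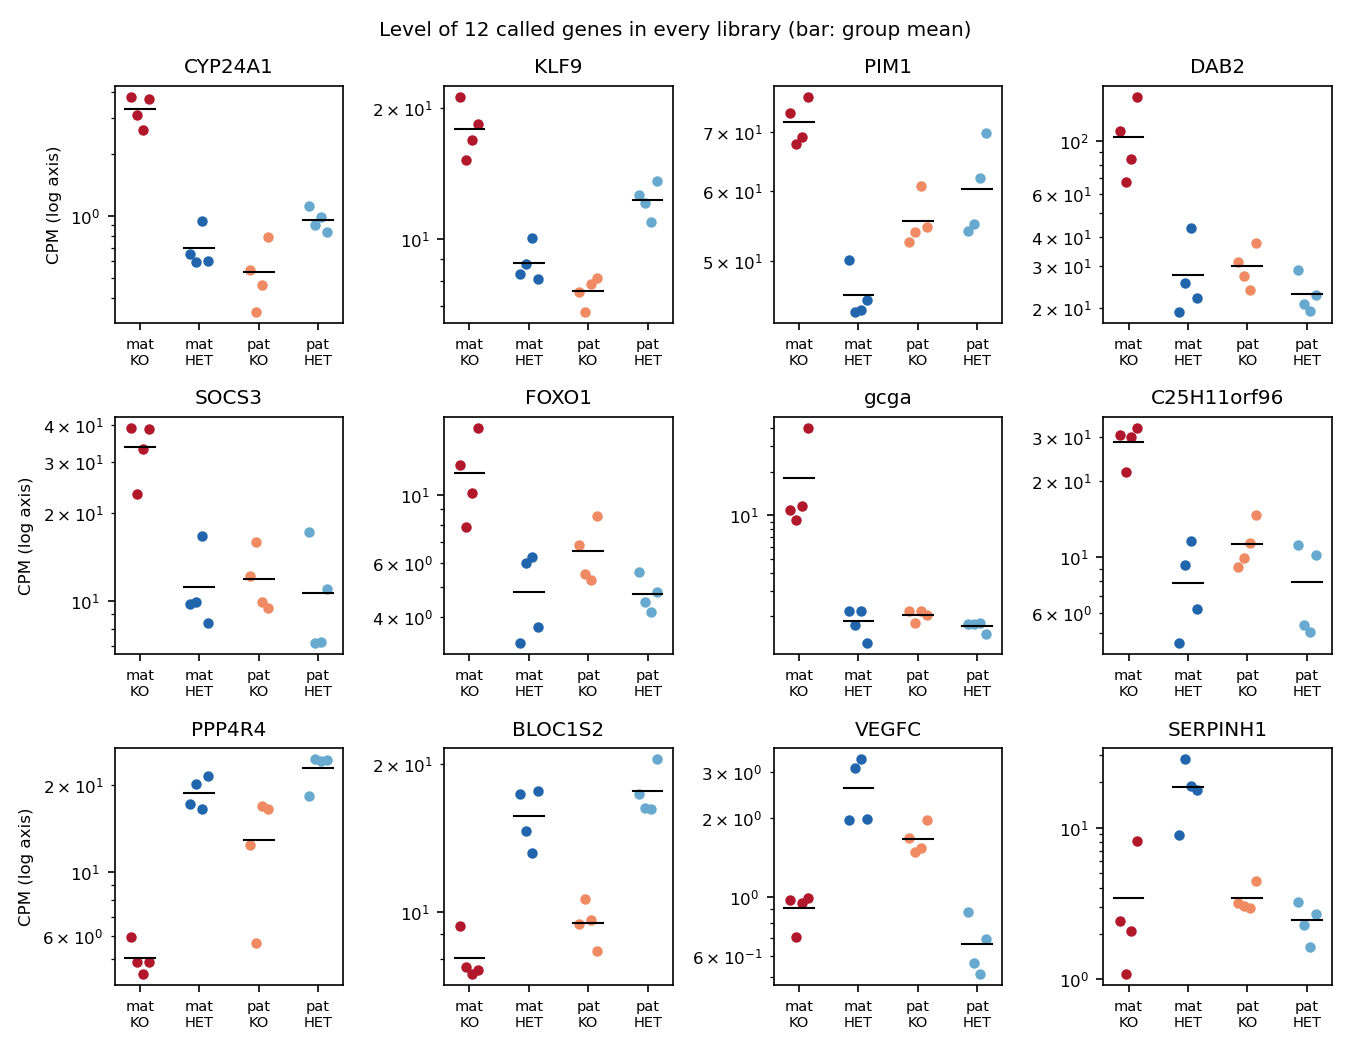
CPM on a log axis in all 16 libraries for 12 called genes, with points for libraries, bars for group means and groups in the order maternal-cross (mat) KO and HET, then paternal-cross (pat) KO and HET as labelled. Maternal-cross KO and HET libraries do not overlap in any of the 12, and gcga in KO replicate 4 (40.3 CPM) stands far above the rest of its group.

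Other named genes were also higher in KO. The lysyl oxidase-like gene loxl2a, whose product crosslinks collagen, had 61.7, 40.8, 54.4 and 68.4 CPM in KO, against 18.1, 28.7, 32.8 and 18.6 CPM in HET, with a log2 fold change of 1.195 (SE 0.21, adjusted p = 0.0217 in edgeR). The linker-histone-like gene histh1l1 had 26.8, 15.9, 24.8 and 30.0 CPM in KO, against 5.52, 8.51, 14.2 and 7.08 CPM in HET. CENPF, a large kinetochore protein, averaged 45.1 ± 4.49 CPM in KO gonads and 32.2 ± 2.24 CPM in HET gonads. COLEC10, a collectin that binds sugars on microbes, was low, averaging 1.31 ± 0.265 CPM in KO gonads and 0.505 ± 0.125 CPM in HET gonads (SD, n = 4 each). Of the named genes without a role given here, C25H11orf96 averaged 28.8 ± 4.78 CPM in KO gonads and 7.91 ± 3.15 CPM in HET gonads, and si:dkey-4c23.8 averaged 112 ± 35.8 CPM in KO gonads and 38.3 ± 8.07 CPM in HET gonads. ENSDARG00000043237 averaged 9.11 ± 1.90 CPM in KO gonads and 2.58 ± 0.843 CPM in HET gonads, and TMEM179 averaged 15.8 ± 2.53 CPM in KO gonads and 6.32 ± 2.22 CPM in HET gonads. TCP11L2 averaged 19.6 ± 1.96 CPM in KO gonads and 12.4 ± 1.80 CPM in HET gonads. Over the 34 higher genes, KO replicate 2 was the lowest KO library in 27, and HET replicate 3 was the highest HET library in 24. KO replicate 4 was the highest KO library in 17 and KO replicate 1 in 11. The order of the libraries over all genes tested was not counted, so this order cannot be called particular to the called genes. The same 2 libraries, KO replicate 2 and HET replicate 3, lie at the extremes of the within-group axis, and leaving out either of them raised the number of calls to 85 and 132.

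Genes of gonadal sex and germ cells did not pass the threshold of the edgeR test. Of 20 tested genes of Sertoli, Leydig and other testis somatic cells, 0 were called, 12 had a positive log2 fold change and the median was 0.03. Over all 21683 genes tested, 10734 had a positive log2 fold change and the median was -0.0021. Without adjustment 3 of the 20 had a p under 0.05, all higher in KO, against 8.91% of all genes. DESeq2, which called 209 of all 21683 genes, called 1 of the 20, wt1b. This transcription factor of the gonad ridge, named after its values were seen, had 13.8, 12.6, 14.4 and 20.4 CPM in KO, against 8.10, 11.6, 9.60 and 7.08 CPM in HET (log2 fold change 0.75, adjusted p = 0.131 in edgeR). The male factor amh, an inhibitor of ovarian development, had 42.8, 20.1, 7.37 and 28.7 CPM in KO, against 10.9, 14.2, 60.4 and 10.2 CPM in HET, so both its lowest and its highest library broke any order of the groups. DMRT1, a transcription factor of the testis, had 37.2, 19.6, 16.4 and 23.8 CPM in KO, against 11.6, 15.4, 29.7 and 12.9 CPM in HET (adjusted p = 0.731 in edgeR). Both genes were highest among HET libraries in replicate 3. Of 16 ovarian somatic genes 0 were called by edgeR or DESeq2 and 3 had an unadjusted p under 0.05, with a median of 0.04, and the aromatase gene CYP19A1, which makes oestrogen, had a log2 fold change of 0.19 (SE 0.20, adjusted p = 0.878 in edgeR). Of 24 oocyte genes 0 were called by edgeR or DESeq2, but 23 had a negative log2 fold change, with a median of -0.17, and 6 had an unadjusted p under 0.05, all lower in KO. Their summed level was 20400, 23970, 19440 and 18540 CPM in KO, against 25960, 24140, 21660 and 26580 CPM in HET, and the groups overlapped. The egg growth factor GDF9 and the oocyte transcription factor figla had log2 fold changes of -0.11 (SE 0.11, adjusted p = 0.877 in edgeR) and -0.14 (SE 0.11, adjusted p = 0.792 in edgeR). Of 19 germ cell genes and 21 meiosis genes 0 were called by edgeR or DESeq2, with 1 and 3 at an unadjusted p under 0.05 and medians of -0.04 and 0.19.

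**Figure D3:**
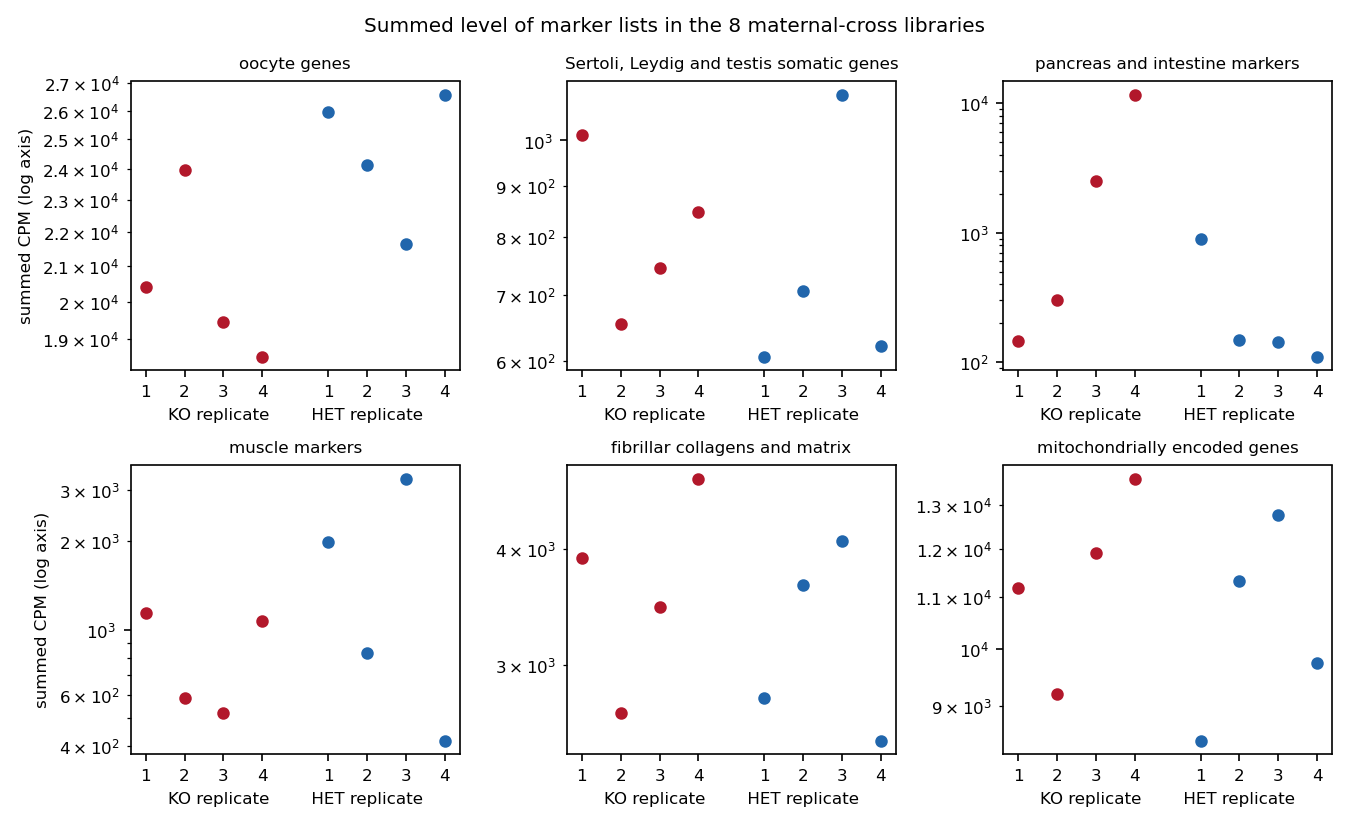
Summed CPM (log axes) of the genes of 6 lists in each maternal-cross library, KO replicates left of HET replicates. Oocyte and testis sums overlap between the groups, while pancreas and intestine markers reach 11670 CPM in KO replicate 4 and 2490 CPM in KO replicate 3, against at most 893 CPM in HET.

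Gsdf itself (ENSDARG00000075301) had 291, 151, 186 and 221 CPM in KO, against 164, 204, 341 and 144 CPM in HET. The groups overlapped throughout, and the log2 fold change was -0.01 (SE 0.26, adjusted p = 0.998 in edgeR). The highest of the 8 values was a HET library, replicate 3, and without it the log2 fold change was 0.31 (adjusted p = 0.544). The Hedgehog inhibitor gene SUFU had a log2 fold change of 0.07 (SE 0.09, adjusted p = 0.893 in edgeR). Of 22 genes on a list of known miR-214 targets edgeR called 0, with a median of 0.06 and 3 at an unadjusted p under 0.05. DESeq2 called 1 of them, MAPK14 (ENSDARG00000028721), a stress-activated p38 kinase, which had 27.7, 25.9, 27.6 and 26.2 CPM in KO, against 21.3, 21.2, 23.1 and 20.1 CPM in HET (log2 fold change 0.33, SE 0.07, adjusted p = 0.0787 in edgeR). Of 55 genes of the TGF-beta family, its receptors and Smads edgeR called 0, with a median of 0.04 and 5 at an unadjusted p under 0.05. DESeq2 called 1 of them, the receptor gene TGFBR2 (ENSDARG00000059363), which had 10.5, 6.96, 10.2 and 13.7 CPM in KO, against 3.04, 5.40, 6.32 and 2.73 CPM in HET (log2 fold change 1.23, SE 0.25, adjusted p = 0.0571 in edgeR). In TGFBR2 and in MAPK14 all KO libraries lay above all HET libraries. This was so in 2 of the 55 and in 1 of the 22 genes of their lists, against 2.25% of all genes tested. TGFBR2 and MAPK14 were named after their values were seen. Of 20 Hedgehog genes and of 33 Wnt genes 0 were called by edgeR or DESeq2, with 2 at an unadjusted p under 0.05 in each list and medians of 0.06 and -0.04. Among all 21683 genes tested, 1931 (8.91%) had an unadjusted p under 0.05, and DESeq2 called 209.

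Of 30 circadian clock genes edgeR called 0, with a median of 0.05. Of these 30, 11 had an unadjusted p under 0.05, 6 higher and 5 lower in KO, against 8.91% of all genes. DESeq2, which called 209 of all 21683 genes, called 3 of them, rorcb, hlfa and dbpa, named here after their values were seen. The nuclear receptor gene rorcb had 15.7, 10.7, 13.9 and 21.4 CPM in KO, against 4.77, 5.57, 10.3 and 5.41 CPM in HET (log2 fold change 1.24, SE 0.25, adjusted p = 0.0515 in edgeR). The bZIP genes hlfa and dbpa, of a family that binds clock-controlled D-boxes, had log2 fold changes of 0.70 and -1.27 (adjusted p = 0.0787 and 0.107 in edgeR). The bZIP gene nfil3-5, which edgeR called as higher in KO, is not on the clock list. Of 32 stress and heat shock genes edgeR called 2, FOSB and SOCS3, both higher in KO, against 0.198% of all genes tested, and the median of the list was 0.03. FOSB was past the threshold in 4 and SOCS3 in 2 of 8 fits that left out 1 maternal-cross library. At an unadjusted p under 0.05 there were 8 members of the list, of which 6 were higher and 2 lower, against 8.91% of all genes. DESeq2 called 6, against 209 of all 21683 genes. All 6 had a positive log2 fold change, and they are these 2, a second SOCS3 gene, FOS and a pair of JUNB genes. The sum of the list was lower in every KO library, at 10600, 10820, 9407 and 9707 CPM in KO, against 11310, 10980, 11110 and 11680 CPM in HET. Of its 32 members, 5 had all KO libraries above all HET libraries, against 2.25% of all genes tested. In 3, HSPA8, HSP90AB1 and dnajb1a, all KO libraries lay below, against 1.67% of all genes tested. These chaperone genes, named after their values were seen, had log2 fold changes of -0.15, -0.13 and -0.16, which did not pass the threshold (adjusted p = 0.619, 0.686 and 0.626 in edgeR). In the fibrillar collagen and matrix list edgeR called 1 of 34, SERPINH1, which was lower in KO, while the list's median was 0.10. At an unadjusted p under 0.05 there were 6, 4 higher and 2 lower, against 8.91% of all genes. DESeq2 called 3 of the list, which are SERPINH1, TIMP2 and LOX. TIMP2 (ENSDARG00000075261), an inhibitor of matrix metalloproteinases, and LOX, which crosslinks collagen, had log2 fold changes of 0.88 and 1.22 (adjusted p = 0.218 and 0.127 in edgeR), and their groups overlapped.

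Markers of other tissues varied widely between libraries. Over all 21683 genes tested, 8.91% had an unadjusted p under 0.05 and 10734 had a positive log2 fold change. Of 15 pancreas and intestine markers 0 were called by edgeR or DESeq2, 13 had an unadjusted p under 0.05, 14 had a positive log2 fold change and the median was 3.46, carried by KO replicates 3 and 4. For prss1 the log2 fold change was 3.48 with all libraries and -0.53 without KO replicates 3 and 4. Of 11 liver markers edgeR called 0 and DESeq2 3 (fabp10a, apoa1b and fga), 8 had an unadjusted p under 0.05, 10 were positive with a median of 2.55, and their sum ran from 125 to 459 CPM in KO and from 137 to 226 CPM in HET. Over all 21683 genes DESeq2 called 209. Muscle markers had a median of -0.78 over 21 genes, with 0 called by edgeR or DESeq2 and 5 at an unadjusted p under 0.05, and summed to between 520 and 1135 CPM in KO and between 417 and 3270 CPM in HET. All 13 mitochondrially encoded genes had a positive log2 fold change, with a median of 0.13, 0 called by edgeR or DESeq2 and 0 at an unadjusted p under 0.05. The part of these tissues in the 43 calls was not tested. The fit without KO replicates 3 and 4, which kept 7 of the calls, had fewer libraries and does not measure it.

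The locus of the microRNA gene showed no edgeR call. Dnm3a, a dynamin 3 gene next to the zebrafish mir214a gene, had raw counts of 344, 393, 255 and 377 in KO and 450, 371, 431 and 351 in HET, with a log2 fold change of -0.26 (SE 0.15, adjusted p = 0.654 in edgeR). MYOC, a neighbouring gene for a secreted glycoprotein, had a log2 fold change of -1.49 (SE 0.40, adjusted p = 0.176 in edgeR). In the gene order of the RefSeq annotation of assembly GRCz12tu, used here for neighbours only, 16 tested protein-coding genes lay within 10 genes of mir214a. Of these, 0 were called by edgeR, 1 (MYOC) by DESeq2, and 2 had an unadjusted p under 0.05, against 8.91% of all genes. Over all 21683 genes DESeq2 called 209. Within 25 genes edgeR called 1 of 34 (2.94%), within 50 genes 1 of 64 (1.56%) and within 100 genes 2 of 118 (1.69%), against 0.198% of all genes tested. The 2 are RALGPS2, an exchange factor for Ral GTPases 18 genes away, and BLOC1S2, 80 genes away. PPP4R4 lies on the same chromosome, more than 100 genes away. RALGPS2 had 42.8, 38.6, 48.1 and 39.6 CPM in KO, against 33.2, 30.6, 32.5 and 28.8 CPM in HET, with a log2 fold change of 0.43 (SE 0.08, adjusted p = 0.0353 in edgeR). RALGPS2 was past the threshold in 2 of 8 fits that left out 1 maternal-cross library, and BLOC1S2 in all 8. KO fish carry 2 copies of the chromosome stretch linked to the mutation and HET fish 1, so a difference in linked sequence and loss of the microRNA cannot be told apart for genes near it.

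In the paternal cross, whose 8 libraries share none with the comparison above, 5034 genes passed the threshold between the libraries labelled KO and HET (23.2% of those tested). Of the 43 maternal-cross genes 15 (34.9%) also passed there, which is 0.298% of the paternal-cross genes. They had the same sign in 11 and the opposite sign in 4 under the deposited labels. The MIR214 counts run against the paternal-cross labels, though they check the genotypes in neither cross. With those labels exchanged, the split would be 4 of the same and 11 of the opposite sign. Under the deposited labels the same-sign genes include nfil3-5, with log2 fold changes of 1.50 in the maternal and 2.01 in the paternal cross, ENSDARG00000043237 with 1.81 and 2.08, PPP4R4 with -1.90 and -0.83, and BLOC1S2 with -0.97 and -0.89. RALGPS2 differed alike in both, by 0.43 and 0.44. PPP4R4, BLOC1S2 and RALGPS2 lie on the chromosome of mir214a, and whether their signs bear on the labels was not tested. Only genes with a unique symbol found in the RefSeq annotation were placed, so more of the 43 may lie there. The share of all tested genes on that chromosome was not counted. The 4 of opposite sign are CYP24A1, KLF9, VEGFC and hif1al, which encodes a protein like the hypoxia-inducible factor subunit.

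The difference between the crosses was tested as an interaction, the maternal-cross KO effect less the paternal-cross KO effect. It passed the threshold for 41 genes (0.189% of those tested), of which 8 were among the 43. The number of interaction calls was 17, 17, 16 and 108 without maternal-cross KO replicate 1, 2, 3 or 4 and 152, 14, 24 and 152 without maternal-cross HET replicate 1, 2, 3 or 4. It was 15 and 16 without the libraries labelled paternal-cross KO replicate 1 or 4 and 15, 15 and 21 without those labelled paternal-cross HET replicate 2, 3 or 4. For CYP24A1 the interaction was 3.05 (SE 0.35, adjusted p = 0.00118 in edgeR), with 0.548, 0.340, 0.459 and 0.793 CPM in the libraries labelled paternal-cross KO and 1.11, 0.898, 0.984 and 0.837 CPM in those labelled HET. Maternal-cross KO was thus the highest of the 4 groups in each of its libraries. For KLF9 the interaction was 1.72 (SE 0.16, adjusted p = 0.000179 in edgeR), with 7.55, 6.79, 7.88 and 8.12 CPM in the libraries labelled paternal-cross KO and 12.6, 12.1, 10.9 and 13.6 CPM in those labelled HET. For VEGFC it was -2.85 (SE 0.33, adjusted p = 0.00118 in edgeR), with 1.68, 1.49, 1.54 and 1.96 CPM in the libraries labelled paternal-cross KO and 0.883, 0.561, 0.510 and 0.697 CPM in those labelled HET. These 3 genes, together with PIM1 (0.77, adjusted p = 0.012) and hif1al (0.72, adjusted p = 0.00455), kept their interaction call in all 16 fits that left out 1 library. The interaction calls of gcga (3.03, adjusted p = 0.0413), loxl2a (1.65, adjusted p = 0.0377) and rtn2b (-1.33, adjusted p = 0.0314) were past the threshold in 7, 9 and 9 of those 16 fits. With the paternal-cross labels exchanged, the interaction would be the sum of both crosses' log2 fold changes, for which no test was made. It would be 1.4 for CYP24A1, 0.33 for KLF9, -0.19 for VEGFC, 0.53 for PIM1, 0.02 for hif1al, 0.74 for loxl2a, -0.53 for rtn2b and 3.54 for gcga. These 8 would keep their sign. All but gcga would be smaller in size, which follows by arithmetic from their opposite signs in the crosses. For the other 35 of the 43 genes the interaction did not pass the threshold, which does not show that the crosses were alike.

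**Figure D4:**
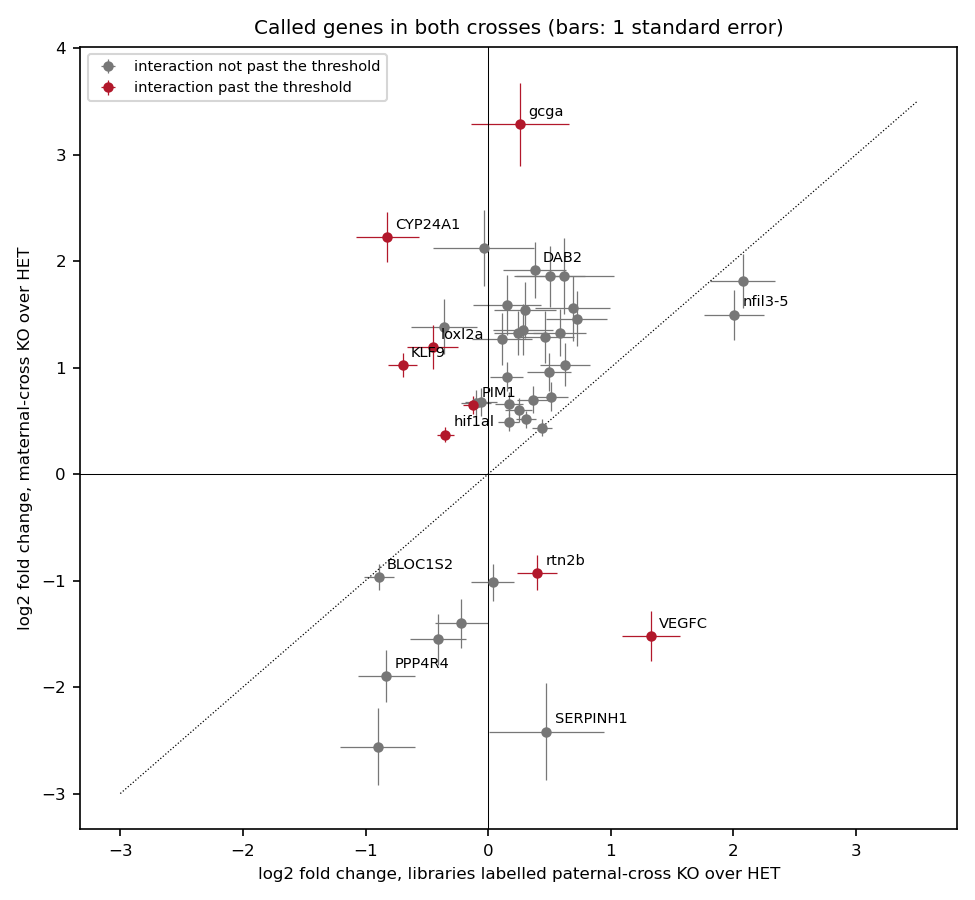
Log2 fold change of KO over HET in the maternal cross (vertical) against that in the libraries labelled paternal cross (horizontal) for the 43 called genes, with bars of 1 standard error and the dotted line marking equal values. The 8 genes past the interaction threshold are red, and 7 of them have opposite signs in the crosses under the deposited labels. Choosing genes by a maternal-cross call and a large difference between crosses favours opposite signs. By arithmetic, these 7 would have the same sign in both crosses if the paternal-cross labels were exchanged.

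FKBP5 and tsc22d3, both known to be induced by glucocorticoids, were looked at after their values were seen. FKBP5, a co-chaperone of the glucocorticoid receptor, had 117, 67.5, 79.0 and 116 CPM in KO, against 33.3, 43.5, 66.7 and 30.9 CPM in HET, and its log2 fold change of 1.12 did not pass the threshold (SE 0.24, adjusted p = 0.0707 in edgeR). In the libraries labelled paternal-cross KO it had 31.2, 22.0, 26.2 and 33.4 CPM, against 65.0, 43.2, 38.6 and 56.8 CPM in those labelled HET, and the interaction was 1.97 (SE 0.34, adjusted p = 0.0314 in edgeR). Tsc22d3 had 102, 67.2, 76.5 and 85.1 CPM in KO, against 33.2, 40.3, 66.1 and 38.4 CPM in HET, with a log2 fold change of 0.90 that did not pass the threshold (SE 0.18, adjusted p = 0.0532 in edgeR). In the libraries labelled paternal-cross KO tsc22d3 had 28.4, 28.9, 28.7 and 29.5 CPM, against 47.7, 32.0, 32.4 and 39.3 CPM in those labelled HET, and its interaction of 1.28 did not pass either (SE 0.26, adjusted p = 0.0507 in edgeR). In both genes every maternal-cross KO library lay above every maternal-cross HET library, which was so in 2.25% of all genes tested. HET replicate 3 was the nearest. No list of genes induced by glucocorticoids was examined, so these picked genes show no pattern of such genes.

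The calls depended on the processing to different degrees. CYP24A1, KLF9 and PIM1 were past the threshold in all 17 other fits, and 16 of the 43 genes were called whichever of the 8 maternal-cross libraries was left out. Besides these 3 they are gcga, PPP4R4, BLOC1S2, DAB2, ENSDARG00000043237, si:dkey-85n7.9, HBP1, TMEM179, MIDN, VEGFC, nfil3-5, C25H11orf96 and si:ch211-211k8.5. The other 27 lost their call in at least 1 of these 8 fits, and 26 of them in at least 4. The DESeq2 Wald test called 209 genes, which held all 43.

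**Figure D5:**
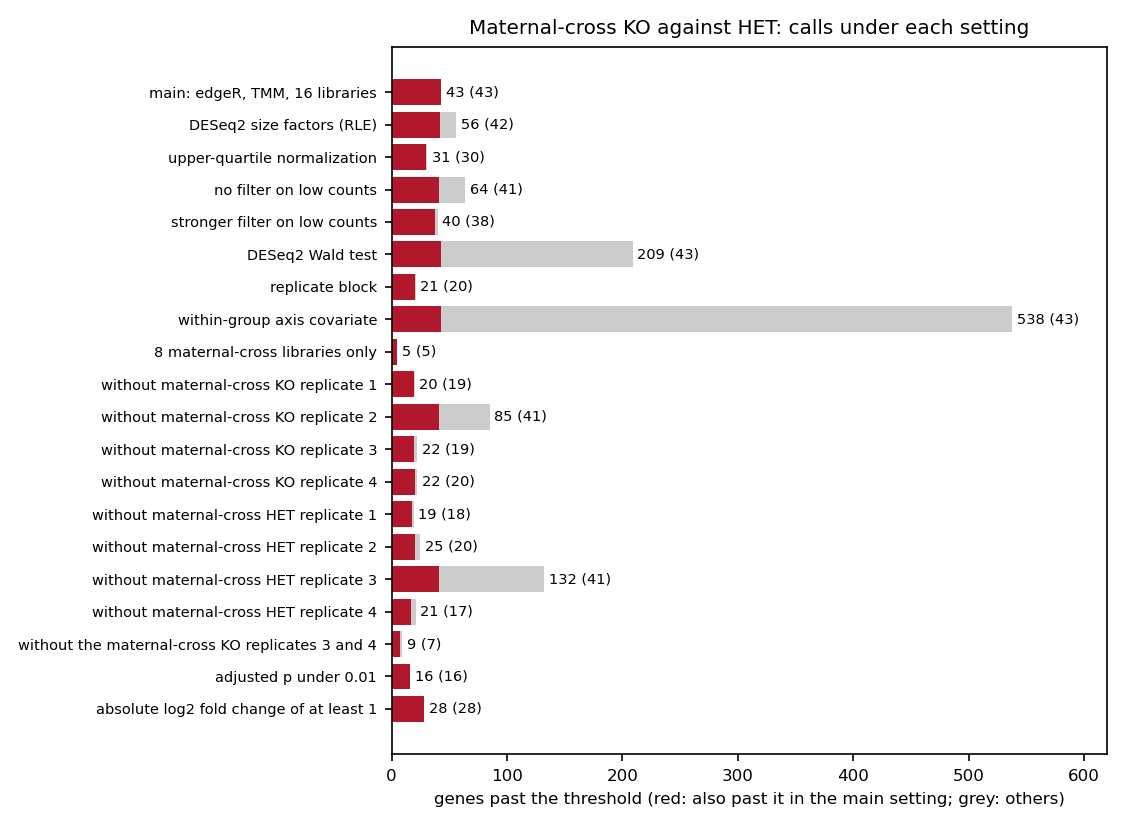
Number of genes past the threshold between maternal-cross KO and HET gonads under each setting, with red for genes also called in the main setting and grey for others. The main setting gives 43, the DESeq2 Wald test 209, a covariate for the within-group axis 538 and fitting only the 8 maternal-cross libraries 5. That covariate was taken from the within-group variation of these same counts, so it takes up part of that spread by construction.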

How the data were processed

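The authors deposited 1 table of raw counts per Ensembl gene for all 16 libraries. Per the submitters' processing notes, STAR 2.4.1d, featureCounts 1.4.6 and DESeq2 were used with the build danRer10. The annotation, and whether counting used strand, are not given in the sources used here, so genes that overlap or share reads with a copy are uncertain. Per the labels' protocols, libraries were stranded poly(A) libraries sequenced on 1 flow cell, and no batch is given. The series describes the replicates as biological. Within-group pairs differed beyond counting noise (chi-square per degree of freedom 13.5 to 50.9 over 12 maternal-cross pairs), so all were kept as separate samples.

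All 31953 genes were read, 3284 had no count in any library, and filterByExpr by group (minimum count 10) left 21683. With TMM scaling, edgeR 4.0.16 (R 4.3.3) fitted its quasi-likelihood model to 16 libraries, each group having its own coefficient. Benjamini-Hochberg adjustment ran over all 21683 genes, with a threshold of 0.05. The procedure was tested on simulated data. It recovered 37, 128 and 187 of 200 changed genes at 1.5-fold, 2-fold and 4-fold, with 3, 2 and 2 false calls. The simulated counts varied independently between genes and libraries. They held no paternal-cross difference, no within-group axis and no libraries rich in markers of other tissues. The numbers of recovered genes and false calls therefore need not hold for the real libraries. Symbols came from a gene name table (26121 identifiers matched). A symbol may be shared by duplicated copies, as for 7 of the 43 called genes (KLHL24, TMEM179, KLF11, MKNK2, SERPINH1, SOCS3 and FOXO1). Genes named by rule are all called genes lower in KO and the 20 called genes higher in KO with the smallest adjusted p. The rule also takes called genes of the lists or else the first 3 tested, hosts and neighbours, and called genes past the interaction threshold. All other genes named lie outside this rule, also where the text does not say so at that place. Among them are RALGPS2, ins, TIMP2, LOX, fga, FOS, NUAK2 and the JUNB genes. The groups, lists and genes were chosen with earlier results of these data known. Alternatives covered scaling, filters, DESeq2 1.42.0, a replicate block, a within-group covariate, the 8 libraries alone, thresholds and leaving out libraries; leaving out maternal-cross KO replicates 3 and 4 together was chosen after seeing the data.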

Additional observations from a re-analysis of the deposited data

Results flagged for a closer look

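In 140 sets of 4 libraries tested for a value far from the other 3, 9 had one, and chance gives about 7 at 1 in 20. Among genes these were gcga at 40.3 CPM in maternal-cross KO replicate 4, BLOC1S2 at 9.38 CPM in KO replicate 1, VEGFC at 0.705 CPM and si:dkey-81j5.4 at 3.11 CPM in KO replicate 2, and NUAK2, an AMPK-related kinase, at 4.15 CPM in HET replicate 3. Among summed levels they were pancreas and intestine markers at 893 CPM in HET replicate 1, and TGF-beta family genes at 1506 CPM and kidney markers at 497.5 CPM in HET replicate 3. The TMM factor of KO replicate 2, at 0.9795, was below those of the other KO libraries (1.053 to 1.068).

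Of the genes named, 10 passed the threshold of the interaction test in edgeR, against 41 of all 21683 genes tested (0.189%). Called genes past that threshold were named by rule, and FKBP5 was picked after its values were seen. The count of 10 is thus largely fixed by the naming. The KO effect was higher in the maternal cross for CYP24A1 (3.05), gcga (3.03), FKBP5 (1.97), nr1d2a (1.80), KLF9 (1.72), loxl2a (1.65), PIM1 (0.77) and hif1al (0.72). It was lower there for VEGFC (-2.85) and rtn2b (-1.33). The calls of gcga, loxl2a and rtn2b were kept in only 7, 9 and 9 of 16 fits that left out 1 library. Nr1d2a, a nuclear receptor of the circadian clock, was not called in the maternal cross (log2 fold change 0.55, adjusted p = 0.314) and was lower in the libraries labelled paternal-cross KO (-1.25, adjusted p = 0.00384). The raw counts of the MIR214 transcript ran against the labels in the paternal cross, with a sum of 19 in the libraries labelled KO and 2 in those labelled HET. Those counts check the genotypes in neither cross. The size and the call of each interaction rest on the deposited labels. With the paternal-cross labels exchanged, 9 of the 10 would keep their sign and nr1d2a would turn to -0.71, with no test made.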

How the results depend on the processing

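In KO against HET, maternal cross, the count of 43 calls became 209 with the DESeq2 Wald test (67.9% higher in KO, against 79.1%), 538 with the within-group covariate, 5 with the 8 libraries alone (60.0% higher), 9 without KO replicates 3 and 4 (66.7% higher), 16 at an adjusted p under 0.01 (68.8% higher) and 28 where the fold change had to reach 2-fold. Leaving out 1 library gave 19 to 132. With the replicate number as a block it was 21 (13 higher and 8 lower, 61.9% higher), 20 of them among the 43. KO and HET libraries of the same number showed no shared deviation (correlations -0.303, -0.107, -0.218 and -0.36, and 0 KO libraries correlated best with their own number). The numbers were not taken as pairs, though so few libraries cannot exclude a pairing. In the interaction of genotype and cross, the count of 41 became 19 with upper-quartile scaling, 70 with no filter on low counts, 637 with DESeq2, 13 with the replicate block, 2693 with the covariate, 20 without KO replicates 3 and 4 and 10 at an adjusted p under 0.01, and leaving out 1 library gave 14 to 152. For single genes in the maternal cross, 765 values over the alternatives kept direction and side of the threshold. Another 266 kept only the direction, 38 newly passed and 18 turned in sign, all 18 in uncalled genes. Leaving out libraries could hardly turn the sign of called genes, whose groups do not overlap. DDX4 (0.01) was -0.0081 with DESeq2 scaling and with DESeq2, -0.0071 with no filter, -0.029 without KO replicates 3 and 4 and -0.015 to 0.026 without single libraries. Gsdf (-0.01) was 0.046 with the covariate, 0.042 without KO replicates 3 and 4 and -0.20 to 0.31 without single libraries. Amh (0.05) was -0.35 to 1.07 without single libraries, and prss1 was -0.53 without KO replicates 3 and 4. No scaling moved the median of all genes by more than 0.0146. The within-group covariate was taken from the variation of these same counts, so it takes up part of the within-group spread by construction. The cause of each change was not tested.

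Depths of 19.9 M to 24.6 M counts limited low genes. Of the 43 calls 7 rest on fewer than 100 counts in every library (CYP24A1, VEGFC, si:dkey-85n7.9, FOSB, COLEC10, cxcl8b.1 and si:ch211-211k8.5), and MIR214 was too low to be tested.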

Other observations

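The remaining called genes, named outside the rule and after their values were seen, include some of vessels, immunity and lipid use, all higher in maternal-cross KO. Lyve1a, a hyaluronan receptor of lymphatic vessels, averaged 5.90 ± 1.09 CPM in KO gonads and 2.25 ± 0.503 CPM in HET gonads, while the lymphatic growth factor gene VEGFC was lower in KO. The chemokine gene cxcl8b.1 averaged 1.35 ± 0.282 CPM in KO gonads and 0.369 ± 0.222 CPM in HET gonads. PNPLA2, a lipase that starts the breakdown of stored fat, averaged 6.26 ± 0.593 CPM in KO gonads and 2.58 ± 1.06 CPM in HET gonads. MKNK2, a kinase of the translation factor eIF4E, averaged 161 ± 23.9 CPM in KO gonads and 101.4 ± 18.6 CPM in HET gonads (SD, n = 4 each). Each of the 4 was lost in most fits that left out 1 library, with 1 or 2 of 8 past the threshold. Leukocyte and erythrocyte markers gave 0 calls in edgeR and DESeq2 among 31 and 10 genes, with medians of 0.11 and -0.01. At an unadjusted p under 0.05 there were 2 and 0, against 8.91% of all genes. Of 26 proliferation genes 0 were called by either tool and 1 had an unadjusted p under 0.05, with a median of -0.06, and the cell-cycle gene CENPF, higher in KO, is not on that list.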
